A study of Mus musculus with 137 samples.

Results

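The cytosolic ribosomal protein genes were examined one by one in the duodenum of mice that drank hexavalent chromium, Cr(VI). A gene counted as a member when its symbol had the form Rpl or Rps followed by a number (with an ending a, x, l, l1 or al allowed), or was Rplp0, Rplp1, Rplp2 or Rpsa. By that rule, 80 of the 21450 genes in the table were members, 29 for the small and 51 for the large ribosomal subunit. Of the probes of a member, the most counted over all libraries was taken. Rpl39l, with 59 counts in all libraries together, did not pass the filter on low counts, so 79 members were tested.

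The mice were wildtype female B6C3F1 mice, given 0, 0.1, 1.4, 5, 20, 60 or 180 ppm Cr(VI), which they drank as sodium dichromate dihydrate for 7 or for 90 days (called day 8 and day 91 after the day of killing). The crypts or the villi were scraped from slide sections of formalin-fixed, paraffin-embedded duodenum, and RNA was measured by TempO-Seq, in which pairs of detector oligos anneal to a short stretch of each targeted transcript and are ligated, amplified and counted. There were 71 crypt and 66 villus libraries from 71 mice, 66 of which gave both, in 28 groups of 4 to 6 libraries. Levels are given as CPM, a probe's counts scaled to a common library size after TMM normalization. Probes differ in how well they capture their transcript, so levels of different genes are not ranked.

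A cytosolic ribosome is built from a small subunit, which reads the mRNA, and a large subunit, which joins the amino acids, each a scaffold of ribosomal RNA carrying many proteins. Most of these proteins are present in a single copy per ribosome, except for the stalk of the large subunit, where Rplp0 anchors dimers of Rplp1 and Rplp2 that recruit the translation factors. The mRNAs begin with a run of pyrimidines (a terminal oligopyrimidine tract, TOP), through which mTOR signalling and Larp1 set their translation together. In the duodenum, crypts hold the stem cells, dividing progenitors and Paneth cells, and villi are covered by differentiated absorptive cells that no longer divide.

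The annotated starts of some of the members named below are shown for the pyrimidine runs that lie at or near them. Of several start sites of a gene, the one with the longest run was taken. Among named members not shown, the longest run began farther from the start in several, such as Rpl4 (26 bases), Rpl19 (32), Rpl27 (−42) and Rpsa (−50). Others were Rpl37 (28), Rpl36al (28), Rps15 (25), Rps4x (40), Rpl7l1 (−32) and Rpl22 (−39). Nearer starts of the longest run were found in some, such as Rpl18 (1), Rps6 (−1) and Rpl15 (−4). Each window holds the 40 bases before and the first 20 bases from a RefSeq transcript start (build GRCm38.p6), on the strand of the gene, 5′ to 3′, and capitals mark the longest unbroken run of C and T. The marked run spans the annotated start for Rpl34, Rplp2 and Rps27, lies wholly before it for Rpl13 and Rps27l and wholly after it for Rps12 and Rpl22l1, so that the marked letters need not be the first of the mRNA.
Rps12: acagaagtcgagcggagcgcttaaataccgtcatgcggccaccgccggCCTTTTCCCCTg
Rpl34: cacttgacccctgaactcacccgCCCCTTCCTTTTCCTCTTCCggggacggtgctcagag
Rpl13: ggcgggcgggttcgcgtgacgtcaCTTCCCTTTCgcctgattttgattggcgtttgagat
Rplp2: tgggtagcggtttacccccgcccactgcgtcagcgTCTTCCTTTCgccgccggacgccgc
Rps27: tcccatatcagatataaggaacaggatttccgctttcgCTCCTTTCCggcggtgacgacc
Rps27l: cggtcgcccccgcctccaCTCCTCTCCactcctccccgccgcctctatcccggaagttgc
Rpl22l1: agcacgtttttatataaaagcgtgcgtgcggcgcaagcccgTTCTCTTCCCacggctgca
The windows lie at chr10:23787190-23787249 on the minus strand (Rps12), chr3:130730318-130730377 minus (Rpl34), chr8:123102310-123102369 plus (Rpl13), chr7:141447611-141447670 plus (Rplp2), chr3:90213629-90213688 minus (Rps27), chr9:66946046-66946105 plus (Rps27l) and chr3:28805468-28805527 plus (Rpl22l1).

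For 60 of the 80 members, RefSeq starts could be matched, 71 start sites in all. A run of at least 8 pyrimidines lay within 50 bases of the start at 55 of these 71 sites (77.5%), with a median longest run of 10 bases. Over the 32851 start sites of 27025 mouse genes, the same held for 11741 (35.7%), and the median longest run was 7. In the 300-base promoters, read on both strands, CCGGAAG was found at 31.0% of the members' start sites and 8.86% of all start sites, AAGATGGC at 11.3% and 2.75%, CACGTG at 11.3% and 7.15%, and TATAAA at 9.86% and 13.6%. These letter counts describe the windows only.

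The libraries held between 1463938 and 7199801 counts (median 3592983), of which the members took 0.643% to 4.81% (median 2.96%). A pair of untreated libraries from day 8 went toward the other compartment. In the villus library of mouse 48, the summed CPM of 10 crypt markers was 11890, against 1339 to 5337 in the other untreated villus libraries of that day, and that of 10 villus markers was 42600, against 67560 to 88240. In the crypt library of mouse 49, the crypt markers summed to 1516 CPM, against 5494 to 19870, and the villus markers to 67990 CPM, against 25480 to 39320. Counts of called members that rest on the untreated mice of day 8 are therefore given with and without mice 48 and 49. Pancreatic acinar markers varied within groups, up to 158700 summed CPM in the untreated crypt library of mouse 5 at day 91.

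The summed CPM of all members was higher in crypts than in villi of untreated mice, and higher at the upper Cr(VI) concentrations than without Cr(VI) in both compartments. At day 91, the 4 untreated villus libraries held 8454, 8486, 7706 and 18020 CPM, a mean of 10670 ± 4914 (SD, n = 4), and the 5 untreated crypt libraries held 30150 ± 5153 (SD, n = 5). In villi, the sum stayed at 10750 ± 3701 and 8815 ± 1094 CPM at 0.1 and 1.4 ppm, and ran from 14290 ± 4389 at 5 ppm over 20690 ± 2432 at 20 ppm to 32540 ± 3256 at 60 ppm, with 31780 ± 8161 in the 180 ppm group (SD, n = 5 each). The 5 villus libraries at 60 ppm and at 180 ppm all lay above the highest untreated one, while the groups at 0.1 to 20 ppm overlapped with the untreated range. Depth went together with exposure in these villi. Untreated libraries held 1667014 to 2678299 counts, those at 60 ppm 2902207 to 6749336 and those at 180 ppm 3030885 to 4574064. In crypts at day 91, the sum was 36790 ± 3088 CPM at 20 ppm, 53260 ± 3888 CPM in the 60 ppm and 45630 ± 4500 CPM in the 180 ppm group (SD, n = 5 each), and the libraries of both upper groups lay above the highest untreated crypt library (38800). The order of 60 and 180 ppm rested on the TMM scaling. So did the 38800 CPM, from mouse 5, whose raw share on members, 2.768%, was the lowest of the untreated crypts. Raw shares ran from 2.768% to 3.516% in untreated crypts, 4.045% to 4.572% at 60 ppm and 4.306% to 4.811% at 180 ppm. As mean shares of a library's raw counts, the members took 3.068% untreated, 4.32% at 60 ppm and 4.475% at 180 ppm in these crypts. In villi of day 91 these shares were 1.113%, 2.725% and 2.793%.

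**Figure D1:**
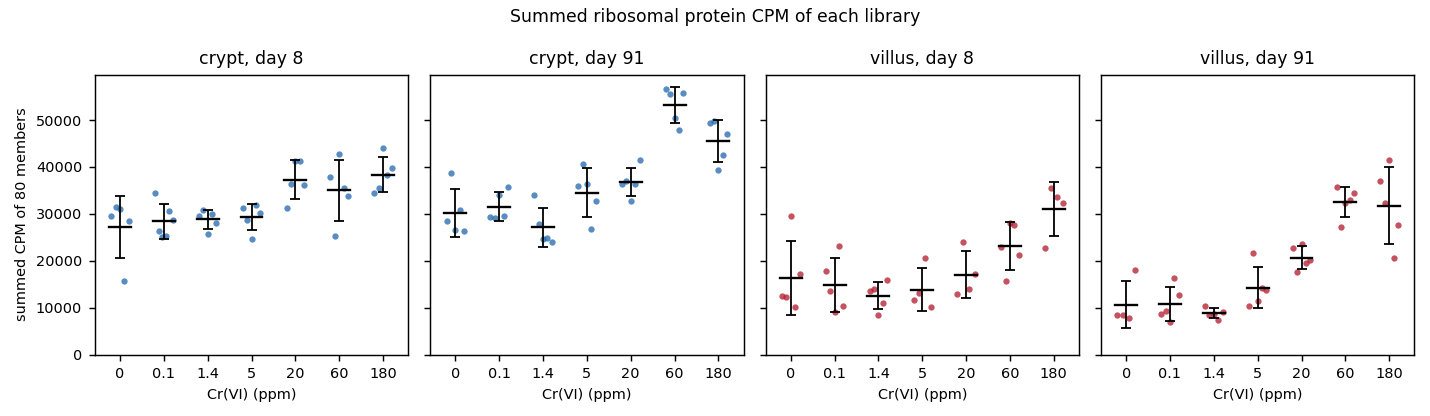
Summed CPM of the 80 members (y axis) in each library by Cr(VI) concentration in ppm (x axis, evenly spaced), in crypts (blue) and villi (red) at each day; points are libraries, lines are means and bars are 1 SD. Villus libraries at 60 and 180 ppm of day 91 lie between 20520 and 41520 CPM, and those of untreated mice between 7706 and 18020.

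At day 8 the sum in villi was 16310 ± 7871 CPM in untreated mice (SD, n = 5), with 29640 in mouse 48 and 10210 to 17083 in the other 4. It was 23110 ± 5053 at 60 ppm (n = 5) and 31010 ± 5708 at 180 ppm (n = 4). In crypts at day 8 it was 27200 ± 6596 in untreated mice (n = 5; 15600 in mouse 49) and 38380 ± 3755 at 180 ppm (n = 5). The untreated and 180 ppm villus groups overlapped only through mouse 48, whereas the crypt groups did not overlap, from 15600 to 31420 CPM untreated against 34430 to 43990 CPM at 180 ppm. In such scraped tissue, more ribosomal protein mRNA per cell and a larger share of cells rich in it cannot be told apart.

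The first comparison was that of villi with crypts in untreated mice. At day 91, 59 of the 79 members were lower in villi (edgeR quasi-likelihood test, Benjamini-Hochberg adjusted p under 0.1), 21 of 29 small subunit and 38 of 50 large subunit members. In this comparison 6.98% of the 26365 probes tested were lower. All 79 members had a log2 fold change below 0, with a median of −1.39, against −0.20 over all probes. The strongest calls were of Rpl4, Rpl18 and Rpsa. Rpl4, a core protein of the large subunit (chr9:64173375-64178666, plus strand, GENCODE M21 on GRCm38), had 464, 594, 537 and 1205 CPM in the 4 villus libraries and 1907, 3465, 1943, 2459 and 2209 CPM in the 5 crypt libraries. The groups did not overlap, and the log2 difference was −1.77 ± 0.26 (SE; adjusted p = 5.92e-07).

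Rpsa, a small subunit protein also known as the laminin receptor, had 136, 67.5, 66.3 and 259 CPM in untreated villi of day 91 and 495, 929, 448, 671 and 554 CPM in crypts. Every crypt library was above every villus library, with a log2 difference of −2.22 ± 0.31 (adjusted p = 2.45e-07). Rpl18, of the large subunit, differed by −1.64 (adjusted p = 1.07e-06). Rps27l, a copy of Rps27 known as a p53 target, was among the members without a call, with −0.36 ± 0.33 (adjusted p = 0.584). This was the smallest difference of the small subunit members, while the smallest of the large subunit was −0.19. Its parent Rps27 was lower in villi (−0.88, adjusted p = 0.0251).

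At day 8, the same comparison called 6 members lower (background 0.216%), namely Rpl34, Rps6, Rpl37, Rplp0, Rpl23a and Rpl13. The median log2 difference was −0.71, and 77 of 79 members were below 0. Rpl34 differed by −0.95 (adjusted p = 0.0111), Rps6, the small subunit protein that S6 kinases phosphorylate, by −0.89 (adjusted p = 0.0526) and Rpl37 by −1.28 (adjusted p = 0.0578). Without mice 48 and 49, 41 members were lower (background 1.82%) and the median was −1.08. With the mouse as a block 43 were lower at day 8 (background 1.28%) and 66 at day 91 (8.98%). Between the days, 12 members were lower in untreated villi of day 91 than of day 8 (background 1.67%), and none without mice 48 and 49 (13 with an unadjusted p under 0.05); in untreated crypts none was called between the days by edgeR (5 with an unadjusted p under 0.05, and 1 without mice 48 and 49, again with no call) or by DESeq2.

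The next comparison was of exposed with untreated villi at day 91. No member was called by edgeR at 0.1 or 1.4 ppm, where 5 and 11 had an unadjusted p under 0.05 and DESeq2 called 0 and 7. At 5 ppm 16 members rose and 5 fell (backgrounds 7.57% and 3.32% of probes). The count that rose was 35 at 20 ppm (background 10.2%), 55 for 60 ppm (10.2%) and 60 for 180 ppm (8.9%), and no member fell in these 3 groups. The median log2 fold changes of the members were 0.12, 0.70, 1.43 and 1.44 at these 4 concentrations, beside 0.43, 0.33, 0.23 and 0.11 over all probes. At both 60 and 180 ppm 54 members were called, at 180 ppm alone 6 and at 60 ppm alone 1. Scaling by DESeq2's size factors moved the median of all probes at 180 ppm from 0.11 to 0 and left 52 members called (background 5.35% higher), with a median of 1.17. It turned the split of all calls at 180 ppm from 2346 higher and 1305 lower to 40.8% higher of 3459.

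At 180 ppm, 22 of 29 small subunit members (median 1.56) and 38 of 50 large subunit members (median 1.38) rose, and 78 of the 79 were above 0. Rps12, a small subunit protein (chr10:23785183-23787275, minus strand), had 82.7, 109, 92.3 and 252 CPM in untreated villi and 955, 679, 1434, 458 and 640 CPM at 180 ppm. All exposed libraries were above all untreated ones, by 2.63 ± 0.33 on the log2 scale (adjusted p = 1.36e-09). Rpl4 had 3356, 2322, 4489, 2195 and 2675 CPM at 180 ppm, against at most 1205 untreated, a difference of 2.10 ± 0.26 (adjusted p = 6.37e-10). Rpl19, a large subunit protein, had 138, 111, 118 and 191 CPM untreated and 616, 500, 794, 381 and 630 at 180 ppm, also without overlap (2.06 ± 0.24, adjusted p = 9.48e-11).

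For 32 of the 79 tested members, every villus library at 180 ppm of day 91 lay above every untreated one, as for 5.7% of all probes tested, and at 60 ppm this held for 44, beside 10% of all probes. The 60 ppm libraries were the tighter group for Rpl4 and Rps12. Rpl4 had 3157, 2591, 2524, 2966 and 2487 CPM there, a mean of 2745 ± 299 against 3007 ± 943 at 180 ppm (SD, n = 5 each). Rps12 had 691 ± 92.4 CPM at 60 ppm and 833 ± 380 at 180 ppm. The 19 members without a call at 180 ppm were Rpl3l, Rpl7l1, Rpl10l, Rpl15, Rpl17, Rpl26, Rpl35a, Rpl36a, Rpl37, Rpl41, Rplp1, Rplp2, Rps3, Rps4x, Rps14, Rps15, Rps16, Rps26 and Rps28.

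**Figure D2:**
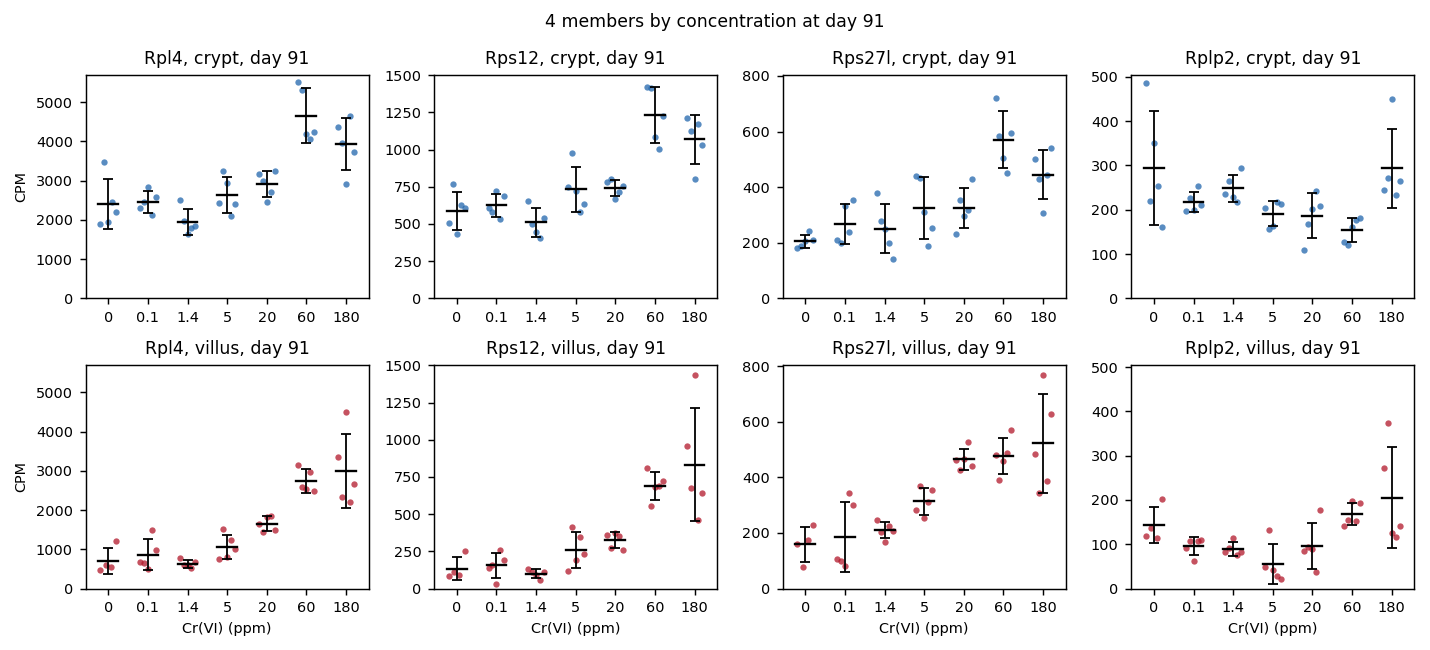
CPM (y axis, from 0) of Rpl4, Rps12, Rps27l and Rplp2 in crypts (blue, upper row) and villi (red, lower row) of day 91 by Cr(VI) concentration in ppm; points are libraries, lines are means and bars are 1 SD. Rpl4 and Rps12 of villi are highest at 60 and 180 ppm, whereas Rplp2 is lowest at 5 ppm in villi (21.5 to 133 CPM) and at 60 ppm in crypts (122 to 182 CPM).

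Markers of the compartments were read beside these calls. In villi at day 91, the 10 crypt markers summed to 468 to 2368 CPM (median 1020) in untreated mice and to 504 to 1655 CPM (median 1008) at 180 ppm, whereas untreated crypts held 4690 to 13040 CPM. Of these markers, Ephb2 rose and Mmp7 fell. Of the 10 villus markers, 3 fell (Apoa4, Apoa1 and Lct), with a summed range of 58770 to 81410 CPM untreated and 30880 to 95840 CPM at 180 ppm. Smooth muscle markers fell in 4 of 6 cases, from 200.4 to 892.4 CPM summed to 278.9 to 379. The part of smooth muscle, goblet or immune cells in the members' rise was not tested; goblet markers rose in 1 of 4 cases, and immune markers rose in 3 and fell in 3 of 10. Of 5 enteroendocrine markers Chgb rose and Chga fell, of 3 Brunner's gland markers Spink4 rose and Muc6 fell, and none of the 12 acinar markers and the 1 blood marker tested was called.

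At day 8, 2 members (Rpl31 and Rpl18) were lower in villi at 1.4 ppm (background 1.0%) and 1 (Rpl37) was higher at 5 ppm (0.106%). At 60 ppm 24 members rose (2.94%), 4 of the small and 20 of the large subunit, and at 180 ppm 44 rose (2.5%), 13 of the small and 31 of the large subunit. The members' median was 0.63 at 60 ppm and 0.87 at 180 ppm, where all probes had −0.10. Without mice 48 and 49, none was called at 1.4 or 5 ppm (3 and 4 with an unadjusted p under 0.05), 27 rose at 60 ppm (background 1.82%) and 48 at 180 ppm (2.14%), with a median of 1.11 at 180 ppm. The counts moved with single untreated villus libraries, to 15 (without mouse 47, background 2.05%) and 48 (without mouse 48, 3.24%) at 60 ppm and to 26 (without mouse 49, 1.76%) and 59 (without mouse 48, 3.5%) at 180 ppm. A separate fit of the villus libraries of day 8 gave 12 at 60 ppm (background 1.89%) and 21 at 180 ppm (1.5%). Rpl34, of the large subunit, had the smallest p. It had 268, 227, 606, 396 and 370 CPM in untreated villi, the 606 in mouse 48, and 838, 976, 809 and 795 CPM at 180 ppm, all above every untreated library, a rise of 1.19 ± 0.21 (adjusted p = 2.23e-05). Rps15, of the small subunit, had the lowest estimate of the well counted members, −0.10 (adjusted p = 0.981), and was 0.09 without mice 48 and 49.

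In crypts at day 91, no member was called by edgeR at 0.1 to 20 ppm, where 1, 0, 9 and 9 had an unadjusted p under 0.05 and DESeq2 called 2 at 20 ppm and none below. At 60 ppm 29 rose and 2 fell (backgrounds 9.78% and 4.73%), and at 180 ppm 21 rose (3.8%), 9 of the small and 12 of the large subunit. The median of the members was 0.55 at both concentrations, beside 0.06 over all probes at 60 ppm. With DESeq2's size factors, 21 rose and 6 fell at 60 ppm (backgrounds 6.02% and 8.94%) with a median of 0.24 beside −0.18 over all probes, and 11 rose at 180 ppm (2.85%). Of the 32 members that rose at 60 or 180 ppm, 18 rose at both. For 36 of the 79 tested members all crypt libraries at 60 ppm lay above all untreated ones (10% of all probes), and for 18 at 180 ppm (3.76%). Smooth muscle markers were lower at 60 ppm in 5 of 6 cases, with summed CPM of 442.4 to 665.5 against 897.5 to 1717 in untreated crypts, and their part in the members' values was not tested.

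Rpl27, a large subunit protein, rose most clearly in the crypts at 60 ppm. It had 415, 941, 459, 707 and 739 CPM untreated, 2054, 2194, 1826, 1685 and 1982 CPM at 60 ppm and 1353, 1639, 890, 988 and 1315 CPM at 180 ppm. The 60 ppm group stood clear of the untreated one (1.58 ± 0.24, adjusted p = 8.23e-07), and the 180 ppm group overlapped with it in 1 library (0.92 ± 0.24, adjusted p = 0.00894). A second Rpl27 probe, with a mean count of 427.3 against 2828, had 0.35 at 180 ppm (adjusted p = 0.514), so this rise rests on 1 of its probes. Rpl19 rose by 0.79 ± 0.21 at 180 ppm (adjusted p = 0.0114).

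At day 8 in crypts, 2 members (Rpl37a and Rpl15) rose at 60 ppm (background 0.755%) and 1 (Rpl4) at 180 ppm (1.05%), where the members' median was 0.45. Rpl4 rose by 0.68 ± 0.23 at 180 ppm (adjusted p = 0.0928), Rps12 had 0.81 (adjusted p = 0.114) and Rpl34 0.53 (adjusted p = 0.148). Rps14 and Rpl35a, of the small and large subunit, had the lowest estimates, −0.27 and −0.15 (adjusted p = 0.844 and 0.887). Without mice 48 and 49, no member was called in crypts of day 8 by edgeR, with 6 at 60 ppm and 7 at 180 ppm under an unadjusted p of 0.05, whereas DESeq2 on all libraries called 17 at 180 ppm.

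**Figure D3:**
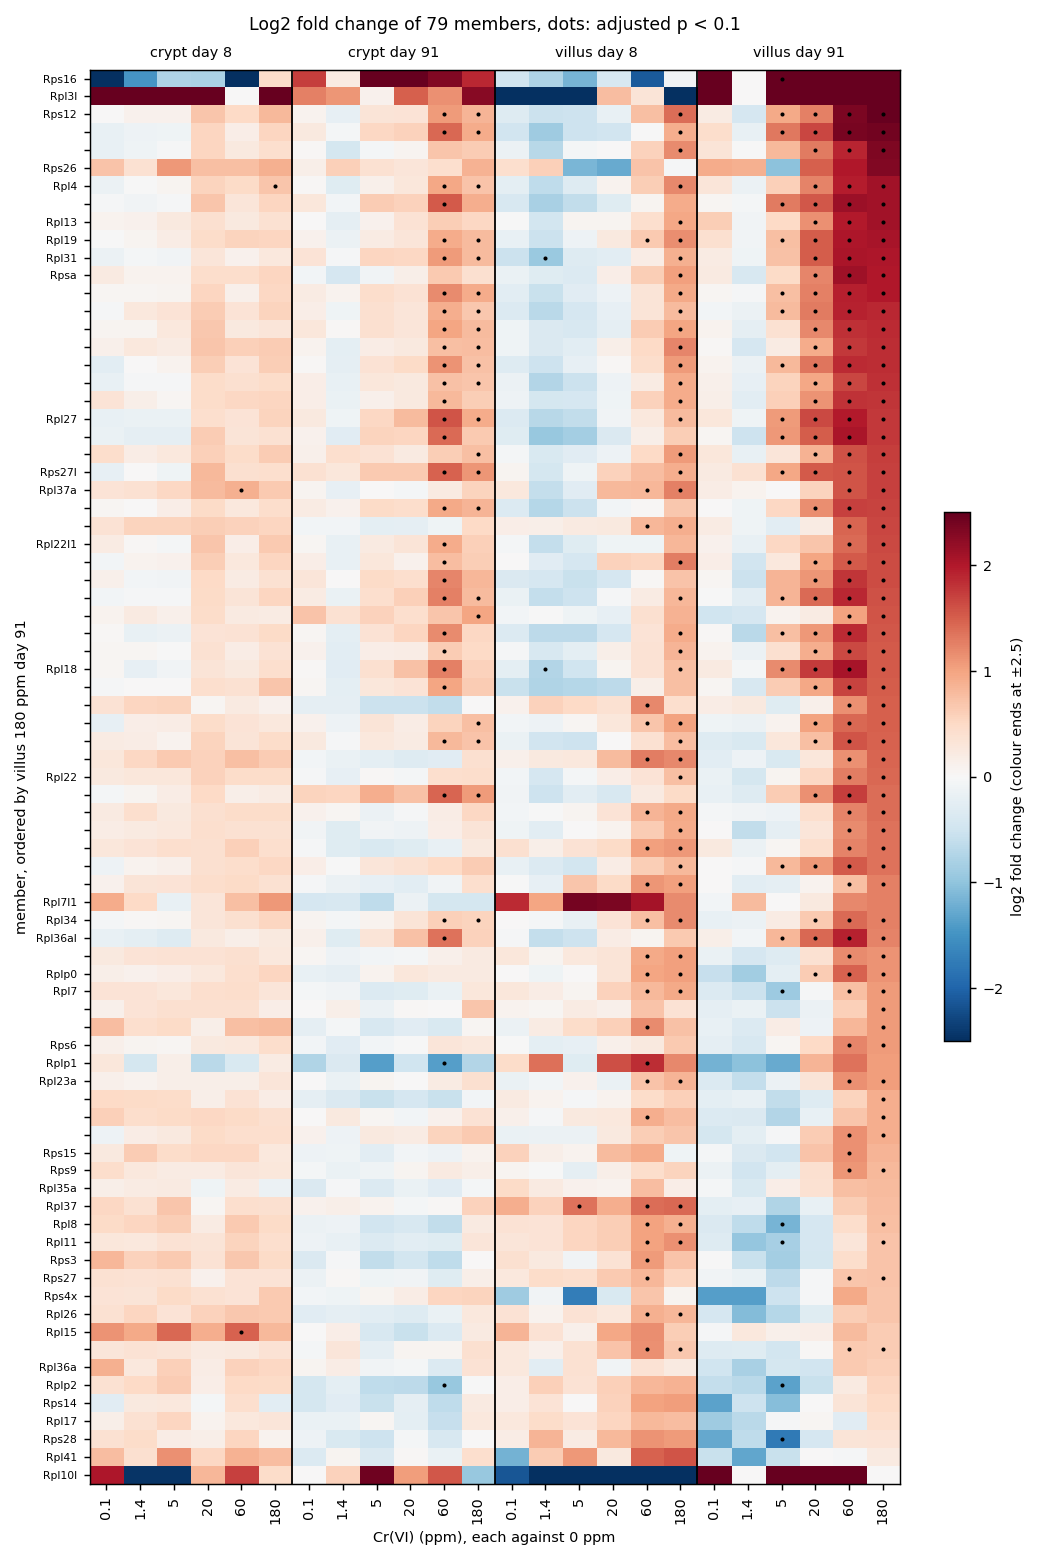
Log2 fold change against 0 ppm (colour, red higher and blue lower, ending at ±2.5) of the 79 tested members (rows, ordered by the villus value at 180 ppm of day 91) with the members described by name labelled, at each Cr(VI) concentration in ppm (columns, in 4 blocks of compartment and day); a dot marks an adjusted p under 0.1. Dots number 60 in the last column (villus, 180 ppm, day 91) and 1 at 180 ppm in crypts of day 8.

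The difference between the compartments in the response to 180 ppm was tested as an interaction. At day 91 it was called for 6 members, all with the larger rise in villi (background 0.205%). Among them were Rps12 (1.77 ± 0.42, adjusted p = 0.043), Rpsa (1.60, adjusted p = 0.0628), Rpl13 (1.58, adjusted p = 0.073), Rpl4 (1.39, adjusted p = 0.0562) and Rpl19 (1.27, adjusted p = 0.0603). Rpsa had 661, 714, 726, 183 and 384 CPM in villi at 180 ppm, with the lowest library below the highest untreated one (259), and 934, 952, 790, 633 and 779 CPM in crypts at 180 ppm, within or just above the untreated crypt range. The estimates were 2.01 in villi (adjusted p = 3.12e-07) and 0.40 in crypts (adjusted p = 0.506). With the mouse as a block 32 members were called (background 1.21%), and with the log10 total count as a covariate none (27 with an unadjusted p under 0.05). At day 8 no member was called for this difference by edgeR (5 with an unadjusted p under 0.05) or DESeq2, nor by edgeR without mice 48 and 49 (29 under 0.05). Between the days, edgeR called none for a difference of the response, with 1 member in crypts and 21 in villi under an unadjusted p of 0.05, and DESeq2 called 0 and 1. Without mice 48 and 49 edgeR again called none, with 1 in crypts and 6 in villi under 0.05.

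The balance of the subunits was read from their sums. The ratio of summed small to summed large subunit CPM was 0.472 to 0.803 over all libraries (median 0.547), and 0.640 at most once the highest library, from crypts at 0.1 ppm of day 8 (mouse 126), was set aside. Group means lay between 0.516 and 0.612. Over the 24 comparisons of exposed with untreated groups, the median log2 fold change of the small subunit minus that of the large subunit ranged from −0.23 to 0.32, with a median of 0.0089. After the group means were removed, a member's log2 CPM correlated with the mean of the other members with a median r of 0.685 over the 71 crypt and 66 villus libraries. Large subunit members had a median of 0.692 and small subunit members 0.661. The libraries share depth and scaling, so these r values are descriptions.

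**Figure D4:**
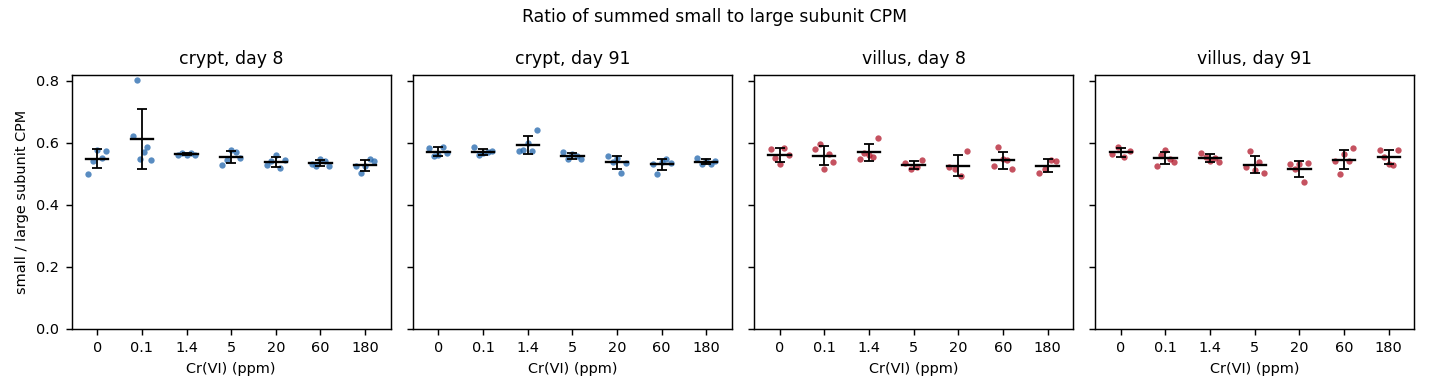
Ratio of summed small to summed large subunit CPM (y axis, from 0) in each library by Cr(VI) concentration in ppm, in crypts (blue) and villi (red) at each day; points are libraries, lines are means and bars are 1 SD. Group means lie between 0.516 and 0.612, and 1 crypt library at 0.1 ppm of day 8 stands at 0.803.

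The stalk proteins did not follow the rest in every group. Rplp0 rose in villi at 180 ppm by 1.12 ± 0.25 at day 91 (adjusted p = 0.000676) and by 1.03 at day 8 (adjusted p = 0.00337). Rplp2 (chr7:141447370-141451585, plus strand) had 119, 137.2, 113 and 202 CPM in untreated villi of day 91 and 47.8, 133, 42.6, 28.7 and 21.5 CPM at 5 ppm. At 5 ppm, 4 of 5 libraries were below every untreated one, a fall of −1.35 ± 0.34 (adjusted p = 0.00519), while at 180 ppm the estimate was 0.53 (adjusted p = 0.355). In crypts of day 91, Rplp2 had 486, 219, 352, 253 and 160 CPM untreated and 128, 122, 160, 176 and 182 CPM at 60 ppm, where it was lower by −0.94 ± 0.30 (adjusted p = 0.0226) with some overlap. At 180 ppm, its crypt level was 293 ± 89.5 CPM, against 294 ± 128 CPM in untreated mice (SD, n = 5 each). At 180 ppm of day 8, Rplp2 lay near the members' medians without a call. It had 0.87 in villi (adjusted p = 0.106, members' median 0.87) and 0.47 in crypts (adjusted p = 0.504, members' median 0.45). Rplp1 had few counts, 37.8, 18.8, 16.5, 14.6 and 2.62 CPM in untreated crypts of day 91 and 4.47, 0.957, 6.32, 13.9 and 10.5 CPM at 60 ppm, and was lower by −1.37 ± 0.54 (adjusted p = 0.0852). This call held in 6 of 10 settings that left out libraries, with estimates from −1.69 to −0.98. At 180 ppm Rplp1 was not called. Its estimates there were 1.21 (day 8) and 1.05 (day 91) in villi, and 0.21 and −0.73 in crypts.

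At 5 ppm in villi of day 91, the members split, and both directions were followed in some of the other groups. Beside Rplp2, the members that fell were Rps28 (−1.77), Rpl8 (−1.17), Rpl7 (−0.91) and Rpl11 (−0.82), and those that rose included Rpl27 (1.06), Rps27l (0.97), Rps12 (0.94), Rpl36al (0.82) and Rpl19 (0.75). Rps16 was called higher against an untreated group at 0 counts and is left aside. These sets of 15 and 5 were chosen from their values, so that the counts below are descriptions. In crypts of day 91 at 60 ppm, from other libraries but with untreated mice in common, 14 of the 15 rose (background 9.78%). Their median was 1.26 (0.49 to 1.58). None of the 5 rose there, with a median of −0.40 (−0.94 to −0.17), beside 0.55 for all members. At 180 ppm in these crypts, 9 of the 15 rose (median 0.79, background 3.8%) and none of the 5 (median 0.22). In villi of day 8 at 60 ppm, from other mice, 1 of the 15 rose (median 0.33, background 2.94%). Of the 5, 3 rose (median 1.01), beside a median of 0.63 for all members. At 180 ppm in villi of day 8, 12 of the 15 rose (median 0.90, background 2.5%) and 3 of the 5 (median 0.94). When the counts of all probes of a gene were summed, 5 members rose and 9 fell at 5 ppm (backgrounds 5.96% and 4.29%). Removing 1 library at a time gave 8 calls (without the untreated villus library of mouse 5) to 27 (without that of mouse 7).

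Of the members, 8 have a symbol ending in l, l1, al or x. Apart from Rps4x, the X-linked gene of a small subunit protein, these are copies of other ribosomal protein genes. Rps27l (chr9:66946086-66949516, plus strand) had 181, 188, 208, 242 and 209 CPM in untreated crypts of day 91, 720, 583, 504, 451 and 596 CPM at 60 ppm and 501, 429, 309, 443 and 540 CPM at 180 ppm. Neither exposed group overlapped with the untreated one, and the rises were 1.47 ± 0.31 (adjusted p = 0.00019) and 1.11 ± 0.30 (adjusted p = 0.0137). In villi of day 91 it had 159, 76.5, 173 and 228 CPM untreated and 483, 342, 770, 386 and 629 CPM at 180 ppm, again without overlap (1.71 ± 0.34, adjusted p = 7.58e-05). Its parent Rps27 rose by 0.71 in villi at 180 ppm (adjusted p = 0.0773) and had 0.15 in crypts (adjusted p = 0.836). A second Rps27l probe, with a mean count of 270.6 against 1147, had 0.14 in those villi (adjusted p = 0.856) and −0.18 in crypts (adjusted p = 0.828), so the rise of Rps27l rests on 1 of its probes.

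Rpl22l1, a copy of Rpl22, had 22.9, 74.4, 55.2 and 98.7 CPM in untreated villi of day 91 and 229, 158, 320, 132 and 153 CPM at 180 ppm, with no overlap (1.65 ± 0.33, adjusted p = 0.000114). Rpl22 itself rose by 1.44 (adjusted p = 1.06e-05). Rpl36al rose by 1.24 (adjusted p = 0.00124) where Rpl36a had 0.60 (adjusted p = 0.555). Rps4x had 0.69 ± 0.55 (adjusted p = 0.502) and Rpl7l1 1.26 ± 0.78 (adjusted p = 0.358). Rpl3l, which is known from muscle, and Rpl10l, known from testis, had 267 and 180 counts in all and were at 0 in 104 and 107 libraries. No fold change is given for them, or for Rps16, whose probe had 710 counts, was at 0 in 74 libraries and reached 15.6 CPM at most. The 3 members least like the rest were Rpl3l (r = −0.0618), Rps16 (r = −0.00499) and Rpl7l1 (r = 0.0721), all with few counts, and Rps27l had r = 0.434.

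A second probe that passed the filter was present for 19 members. At 180 ppm in villi of day 91, 18 of the 19 were called higher by the first probe and 12 by the second, all 12 by both, and the signs were the same for all 19. The median log2 fold change was 1.69 by the first and 1.46 by the second probe. Rps9 had 0.82 by the first and 1.64 by the second, Rplp0 1.12 and 1.92, and Rpl27 1.77 and 0.51 (second probe, adjusted p = 0.263). In crypts at 180 ppm of day 91, 8 were called by the first and 1 by the second, none by both. In untreated mice of day 91, 17 were lower in villi by the first and 12 by the second, 12 by both. Ribosomal protein genes have many processed pseudogenes with near-identical sequence, and how reads from these were assigned is not given in the sources used here, so the level of a single member is uncertain to that extent.

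**Figure D5:**
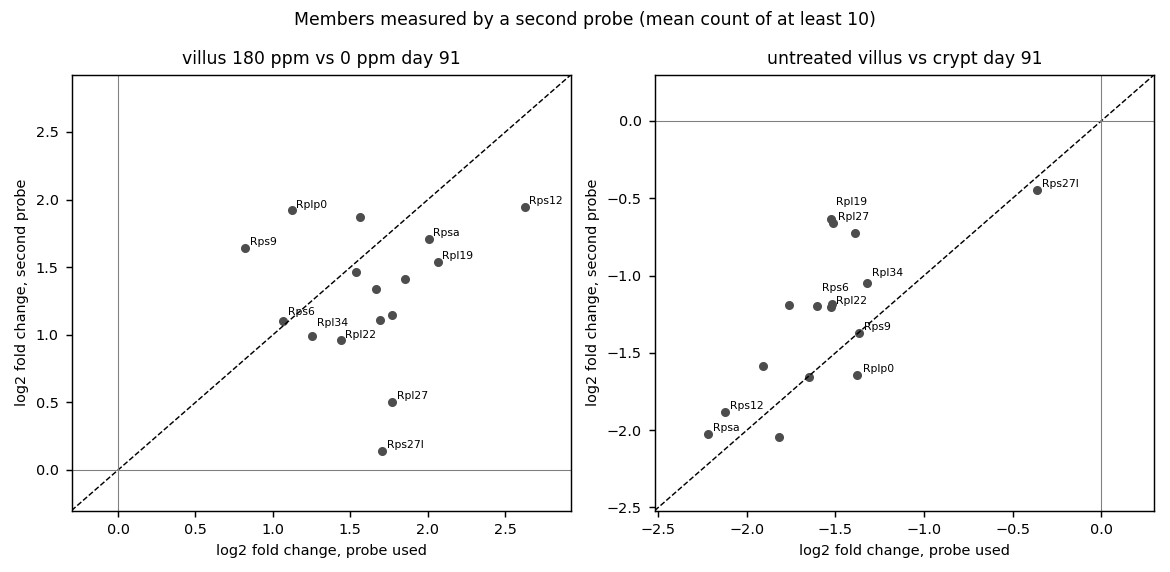
Log2 fold change by the probe used (x axis) and by the second probe (y axis) of the 16 members whose second probe had a mean count of at least 10, for 180 ppm against 0 ppm in villi of day 91 (left) and for untreated villi against crypts of day 91 (right), with the members described by name labelled; the dashed line marks equal values. On the left, all 16 are above 0 by both probes, and Rps27l and Rpl27 lie farthest below the line.

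Other genes of the pathway were read in the same fits. In villi at 180 ppm of day 91, 8.9% of all probes were higher and 4.95% lower, with a median of 0.11. At 180 ppm in villi of day 91, 3 of the 4 ribosomal proteins outside the symbol rule rose (Rack1 and Rps3a1 among them, median 1.16). So did 4 of 7 elongation factor genes (Eef1a1, Eef1b2, Eef1g and Eef2, median 1.39). Of 16 genes other than ribosomal proteins whose mRNAs carry a TOP tract, 9 rose (median 1.16). These lists overlap. The TOP list also holds Eef1a1, Eef1b2, Eef1d, Eef1g and Eef2, and Npm1 of the assembly list, so such genes are counted in both. Of 27 ribosome assembly genes, 13 rose (median 1.27), among them Fbl, which methylates ribosomal RNA, Ncl, Npm1 and Nop56. Of 75 mitochondrial ribosomal protein genes, 24 rose and 1 fell (median 0.80). In contrast, 1 of 15 regulators of ribosomal protein synthesis rose (Rps6kb1; median −0.09). Of 5 genes of the p53 response to free ribosomal proteins, Mdm2 and Trp53 rose (median 0.08).

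In crypts at 180 ppm of day 91, where 3.8% of all probes were higher, 15 of the 27 assembly genes rose (median 1.08), beside 21 of 79 members (median 0.55), 1 of 7 elongation factors, 4 of 16 other TOP genes, 12 of 75 mitochondrial ribosomal proteins, none of the 4 ribosomal proteins outside the rule and none of the 15 regulators. Trp53 and Cdkn1a rose. In villi at 180 ppm of day 8, with 2.5% of all probes higher, 2 of 27 assembly genes rose (Ncl and Ltv1; median 0.65) beside 44 of 79 members, with 2 of 4 ribosomal proteins outside the rule, 3 of 7 elongation factors, 6 of 16 other TOP genes, 9 of 75 mitochondrial ribosomal proteins, 1 of 15 regulators (Eif4ebp1) and none of the 5 p53 response genes. The TOP list again shares genes with the elongation factor and assembly lists. Whether these shares differ between lists or groups was not tested.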

How the data were processed

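Targeted RNA counts were measured in crypt and villus libraries of mouse duodenum. The deposited values are raw counts per probe and library; the authors demultiplexed with bcl2fastq 2.17.1.14 and aligned with Bowtie, per the submitters' processing notes, and a genome build is not given in the sources used here. Library totals were 1463938 to 7199801 counts.

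From the counts, probes were filtered with filterByExpr over the 28 groups (26365 of 30146 kept), scaled by TMM and tested in R 4.3.3 with glmQLFit and glmQLFTest of edgeR 4.0.16 (limma 3.58.1) in a fit of all libraries with 28 group means. Tests were two-sided, Benjamini-Hochberg adjusted over all probes of a comparison, with a threshold of 0.1. Replicates are separate mice. Fold changes are log2, with the default prior count of the fit. Likeness used log2(CPM + 1). Alternatives were a mouse block, DESeq2 1.42.0, its size factors, other filters, summed or second probes, counts thinned to the smallest total, scaling from non-members, a depth covariate, separate fits, the default edgeR form, and leaving out libraries. The tests were checked on simulated data. Figures and promoter counts used Python 3.11.15.

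Crypt and villus libraries with the same number come from the same mouse. Their deviations from the group means correlated with a median r of 0.0721 over 66 pairs, and −0.0201 over 269 pairs of different mice. The block was fitted within each day.

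Named members were the 3 with the smallest adjusted p in each direction and the 3 farthest from the members' median in each of the 4 comparisons of 180 with 0 ppm, the 3 with the smallest p in each direction between untreated villi and crypts of each day, the copies and Rps4x, Rplp0, Rplp1, Rplp2 and Rpsa, and the 3 least like the rest. Members in counts of 6 or fewer, the 5 ppm sets and other examples were named after their values were seen. Results of some genes are not reported here. The members and lists were chosen with earlier results of these data known. Marker lists covered crypt, villus, goblet, enteroendocrine, acinar, Brunner's gland, immune, smooth muscle and blood cells.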

Additional observations from a re-analysis of the deposited data

Results flagged for a closer look

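Each of 80 checks looked at 1 quantity in 1 group for a single library far from the others. Of these checks 5 were picked out, and chance picks out about 1 in 20. The checks reuse the same libraries, so they are not independent. The summed CPM of the members was 15600 in the untreated crypt library of mouse 49 at day 8, below the other 4, and this library also had the lowest crypt marker sum of its group. In untreated villi of day 91, mouse 7 stood above the other 3 mice, with a summed CPM of 18020 and 252.5 CPM of Rps12. Its library also had the highest crypt (2368 CPM), smooth muscle (892.4 CPM) and acinar (56370 CPM) marker sums of that group. Its villus marker sum, 58770 CPM, was the lowest. The ratio of small to large subunit CPM was 0.803 in the crypt library of mouse 126 at 0.1 ppm of day 8. Rplp2 had 450.9 CPM in the crypt library of mouse 485 at 180 ppm of day 91, the highest of that group.

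The response to 180 ppm at day 91 differed between villi and crypts, by the interaction test of edgeR, for 6 members. The log2 differences (villus minus crypt) included 1.768 for Rps12, 1.605 for Rpsa, 1.582 for Rpl13, 1.389 for Rpl4 and 1.271 for Rpl19. All 6 had a higher mean CPM at 180 ppm than at 0 ppm in both compartments.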

How the results depend on the processing

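Counts of called members at 180 ppm and at 1 or more concentrations in villi of day 91, and between untreated villi and crypts of day 91, were within 1.5 times of those reported under each alternative run. Those resting on day 8 controls or on crypts at 180 ppm were not, nor were those at lower concentrations in villi of day 91, where the 21 of 5 ppm became 8 to 27 without 1 library, the 35 of 20 ppm became 23 with the depth covariate, and the 0 of 1.4 ppm became 7 by DESeq2 and 3 with the covariate.

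With the mouse as a replicate block, 43 members in place of 6 were called between untreated villi and crypts of day 8, and 32 in place of 6 for the compartment difference in the 180 ppm response at day 91; the block moved no other count of the comparisons it applies to by more than 1.5 times. The untreated difference of day 8 also gave 44 by DESeq2, 18 with its size factors in edgeR, 16 with probes summed, 2 in the default edgeR form, 29 with a mean count of at least 10, 41 without mice 48 and 49, 11 with scaling from non-members, 1 in a separate fit and 14 in thinned counts. The compartment difference of the response at day 91 gave 0 with the depth covariate, 10 in a separate fit and 3 with size factors. The 1 member called in crypts at 180 ppm of day 8 became 12 with the covariate, 17 by DESeq2, 7 with probes summed, 0 in the default form, 6 with a mean count of at least 10, 0 without mice 48 and 49, 2 with non-member scaling, 9 in a separate fit, 8 with size factors and 6 in thinned counts. The 3 called at any concentration became 13, 18, 9, 0, 8 and 0 under the first 6 of these, 11 in a separate fit, 10 with size factors and 8 in thinned counts. In crypts at 180 ppm of day 91, 21 became 9 with the covariate, 9 in the default form, 45 in a separate fit and 11 with size factors, and the 34 at any concentration became 55 in a separate fit. In villi of day 8, a separate fit gave 21 in place of 44 at 180 ppm and 25 in place of 50 at any concentration. Untreated villi between the days gave 4 with the covariate, 19 by DESeq2, 0 without mice 48 and 49 and 1 in a separate fit, in place of 12, and the difference of the villus response between the days gave 1 by DESeq2 and 1 in the default form, in place of 0. For these counts the cause was not tested.

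Leaving out 1 library at a time gave 0 (without crypt mouse 49) to 7 (without crypt mouse 50) in crypts at 180 ppm of day 8 and 0 to 10 at any concentration, 26 to 59 (without villus mouse 48) in villi at 180 ppm of day 8 and 35 to 67 at any concentration, 7 (without crypt mouse 6) to 25 in crypts at 180 ppm of day 91 and 28 to 37 at any concentration, and 52 to 64 in villi at 180 ppm of day 91 and 57 to 66 at any concentration. Untreated villi against crypts gave 1 (without villus mouse 46) to 55 (without villus mouse 48) at day 8 and 52 to 67 at day 91, untreated villi between the days 0 (without mouse 48) to 30 (without mouse 7), and untreated crypts between the days 0 throughout. The compartment difference of the response gave 0 (without villus mouse 3) to 23 (without villus mouse 7) at day 91 and 0 throughout at day 8. The difference between the days gave 0 to 11 (without villus mouse 7) in villi and 0 throughout in crypts.

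The sign changed for Rps27l in crypts at 180 ppm of day 91 with its second probe (1.11 to −0.18). It also changed for members without a call. Rps15 in villi at 180 ppm of day 8 (−0.10) was 0.0354 with the covariate, 0.0867 without mice 48 and 49 and −0.39 to 0.33 without 1 library. Rplp2 in crypts at 180 ppm of day 91 (−0.0057) was 0.0292 without mice 48 and 49, 0.00113 with non-member scaling and −0.22 to 0.26 without 1 library. Without 1 library, Rps4x in villi at 180 ppm of day 8 (0.08) was −0.23 to 0.31 and Rplp1 in crypts at 180 ppm of day 8 (0.21) was −0.12 to 0.63. Members with few counts (Rpl39l, Rpl3l, Rpl10l and Rps16) could not be read at this depth.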
